A study of Homo sapiens with 4 samples.

Results

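The neuronal cytoskeleton and early neuron genes described here are 10 genes, taken from the 25690 gene rows of the count table by symbol. They are the neurofilament genes NEFL, NEFM and NEFH, the related intermediate filament genes INA and PRPH, the microtubule genes STMN2, DCX and TUBB3, and ELAVL3 and ELAVL4, which encode neuronal RNA-binding proteins. Messenger RNA enriched by its polyA tail was sequenced from H9, a human embryonic stem cell line, at day 7 of a culture that the series calls non-neural ectoderm. There were 2 libraries with the genotype label TFAP2A knockout and 2 wild-type (WT) libraries, all from H9 cells and all from the same day. The titles of the knockout libraries name TFAP2C instead of TFAP2A, and the labels give no clone, guide, differentiation protocol or agent. The 10 genes were chosen on their counts in this same comparison, whose values were known, so their differences between the genotypes are given as a description, with no p-values. Of the 10, 8 had enough counts to enter the fit over all genes, and STMN2 and ELAVL4 did not.

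Neurofilaments are the intermediate filaments of axons, assembled from a light, a medium and a heavy chain (NEFL, NEFM and NEFH), and alpha-internexin (INA) and peripherin (PRPH) can assemble with them. Doublecortin (DCX), class III beta-tubulin (TUBB3) and stathmin-2 (STMN2) act on or form the microtubules of young neurons, and the ELAVL3 and ELAVL4 proteins bind AU-rich stretches of neuronal transcripts. All are used as markers of neurons, whereas TFAP2A, an AP-2 transcription factor, is a regulator of non-neural ectoderm and neural crest.

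Promoter windows from 250 bases before to 50 bases after the start site were given by RefSeq (build GRCh38.p14) for 5 of the 10 genes, namely INA, PRPH, DCX, TUBB3 and ELAVL4. Windows for INA and PRPH are shown because these filament genes were not higher in the knockout-labelled libraries, and the first of 3 windows for DCX because DCX had the highest level of the 10 genes. Each is printed 5′ to 3′ along the gene's own strand and ends 20 bases after the start site. Capitals mark exact matches on either strand to GCCNNNGGC (the AP-2 motif), CAGCTG (an E-box, bound by proneural factors) or TATAAA. No printed match overlapped another.
INA, chr10:103276888-103277157, plus strand: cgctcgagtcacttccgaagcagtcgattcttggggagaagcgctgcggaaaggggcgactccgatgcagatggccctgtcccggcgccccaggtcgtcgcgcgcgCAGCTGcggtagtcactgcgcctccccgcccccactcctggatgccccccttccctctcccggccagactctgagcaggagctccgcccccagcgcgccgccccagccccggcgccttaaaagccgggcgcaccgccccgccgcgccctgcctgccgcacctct
PRPH, chr12:49294897-49295166, plus strand: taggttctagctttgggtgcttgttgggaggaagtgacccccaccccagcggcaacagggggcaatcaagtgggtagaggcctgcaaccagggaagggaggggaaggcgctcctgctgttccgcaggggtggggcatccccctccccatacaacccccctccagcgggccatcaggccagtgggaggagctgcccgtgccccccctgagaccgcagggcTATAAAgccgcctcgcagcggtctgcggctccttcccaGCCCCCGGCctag
DCX, chrX:111412173-111412442, minus strand: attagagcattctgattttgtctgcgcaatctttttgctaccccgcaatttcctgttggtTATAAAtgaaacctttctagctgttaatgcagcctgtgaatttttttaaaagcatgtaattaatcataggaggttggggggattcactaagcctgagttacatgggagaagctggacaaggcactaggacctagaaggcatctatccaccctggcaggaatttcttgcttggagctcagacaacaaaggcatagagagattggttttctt
The INA window held an E-box that began 144 bases before the start site. PRPH held TATAAA 31 bases before the start site and an AP-2 match that began 7 bases downstream of it, and the DCX window held TATAAA 190 bases before the start site. The AP-2 letters were in 23.2% of all 35116 RefSeq promoter windows of this length, CAGCTG in 17.9% and TATAAA in 11.5%. Among the windows of the 5 genes, the AP-2 letters were in the PRPH window and in none of those of INA, DCX, TUBB3 or ELAVL4. The core of RE1, the element bound by the neuronal repressor REST, was in none of these windows and in 0.0513% of all windows. A match is a description of the letters in the window and does not show binding.

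The libraries held 19305868 and 21797851 counts under the knockout label, and 17945210 and 17838204 counts in WT. Levels are given as CPM, counts divided by the scaled size of the library. A library with 0 counts could still hold up to 3, which is 0.154 and 0.137 CPM in the knockout-labelled libraries and 0.168 and 0.17 CPM in WT, and such limits and intervals cover counting error only. TFAP2A, which the genotype label names, was at 133 and 121 CPM in the knockout-labelled libraries against 171 and 198 CPM in WT, TFAP2C, which the sample titles name, was at 8.88 and 5.77 CPM against 27.5 and 30.5 CPM in WT, and TFAP2B at 45.6 and 40.5 CPM against 261 and 287 CPM in WT. These counts check the label only in part, so each direction is that of the libraries labelled knockout. All 13 markers of non-neural ectoderm were detected, among them KRT8 at 1055 CPM under the knockout label and 1313 CPM in WT. Of the 13, 9 were lower in the knockout-labelled libraries and none higher, or 7 of 11 without TFAP2A and TFAP2C. Of all genes tested, 22.3% were called lower at an adjusted p under 0.05. Whether the 2 libraries of each genotype stem from separate cultures is not stated, and p-values thus measure only their spread, possibly a technical one.

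The clearest feature of these genes was a high level of the light and medium neurofilament transcripts in the knockout-labelled libraries. NEFM, the medium chain gene (chromosome 8, 24771274 to 24776606, plus strand, hg19), was at 32.9 and 37.8 CPM in the knockout-labelled libraries, against 1.23 and 1.05 CPM in WT. Both knockout-labelled libraries lay far above both WT libraries, with a log2 fold change of 4.97 (SE 0.16), which is 31.3-fold. NEFL, the light chain gene (chromosome 8, 24808469 to 24814383, minus strand, hg19), was at 25.5 and 29.3 CPM under the knockout label, against 0.978 and 1.56 CPM in WT. The groups were again far apart, with a log2 fold change of 4.40 (SE 0.18), or 21.1-fold. The raw counts behind these values were 498 and 640.5 for NEFL and 642 and 825.5 for NEFM in the knockout-labelled libraries, against 17.5 and 27.5 for NEFL and 22 and 18.5 for NEFM in WT. The WT levels therefore rest on few counts, and the NEFL log2 fold change was 4.10 without WT replicate 1 and 4.76 without WT replicate 2. Only 33 of the 15643 genes tested, or 0.211%, had a log2 fold change at least as large as that of NEFL, and NEFM stood 25th and NEFL 33rd in that order. In bulk RNA, more cells of a type and more RNA per cell cannot be told apart.

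NEFH, the heavy chain gene (chromosome 22, 29876181 to 29887277, plus strand, hg19), differed by much less. It was at 9.29 and 10.7 CPM in the knockout-labelled libraries, against 4.33 and 4.76 CPM in WT. The groups did not overlap, and the log2 fold change was 1.14 (SE 0.16), or 2.20-fold.

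The other intermediate filament genes of neurons were low under either label and not higher in the knockout-labelled libraries. PRPH, the filament gene of peripheral neurons (chromosome 12, 49688909 to 49692481, plus strand, hg19), was at 0.998 and 1.67 CPM in the knockout-labelled libraries, against 1.96 and 2.30 CPM in WT. Both knockout-labelled values were below both WT values, with a log2 fold change of -0.64 (SE 0.30). PRPH lies within LOC101927267 on the opposite strand, which was at 2.31 ± 0.366 CPM under the knockout label and 2.48 ± 0.343 CPM in WT (SD, n = 2 each), and because no source used here says whether strand was used in counting, reads of the PRPH stretch cannot be assigned to a strand. INA (chromosome 10, 105036920 to 105050108, plus strand, hg19) was at 0.742 and 0.618 CPM in the knockout-labelled libraries, against 1.12 and 0.652 CPM in WT. The groups overlapped, and its log2 fold change of -0.41 (SE 0.41) was no larger than its error. Without WT replicate 1 it was -0.01.

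**Figure D1:**
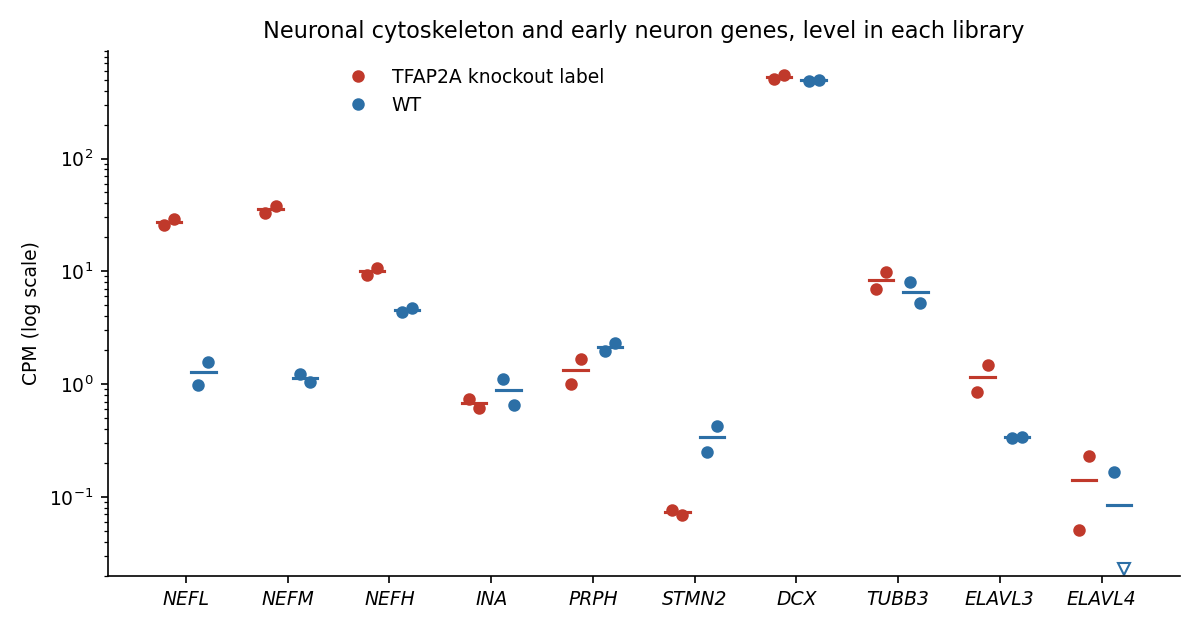
CPM on a log axis for each of the 10 genes, with knockout-labelled libraries in red to the left and WT libraries in blue to the right; points are libraries, bars are means, and the open triangle is a library with 0 counts. NEFL and NEFM are above 25 CPM in both knockout-labelled libraries and below 2 CPM in both WT libraries, while DCX lies between 491 and 546 CPM in all 4.

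The mix of filament transcripts differed between the genotypes. Per kb of the longest annotated protein-coding transcript, NEFL and NEFM together made up 82.8% and 82.4% of the summed level of the 5 filament genes in the knockout-labelled libraries, against 20.7% and 22.9% in WT. NEFH took 14.1% in both knockout-labelled libraries, and 43.4% and 44.8% in WT. PRPH took 1.77% and 2.56% under the knockout label, against 22.8% and 25.2% in WT. The summed level of the 5 genes was 69.4 and 80.2 CPM under the knockout label, against 9.61 and 10.3 CPM in WT. The smaller shares of NEFH and PRPH thus largely restate the difference in NEFL and NEFM, and the level of NEFH itself was higher under the knockout label. NEFL and NEFM kept nearly the same ratio in the knockout-labelled libraries, with 1.29 NEFM counts per NEFL count in each, against 1.26 and 0.673 in the WT libraries. The lower WT value came from 18.5 NEFM and 27.5 NEFL counts.

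**Figure D2:**
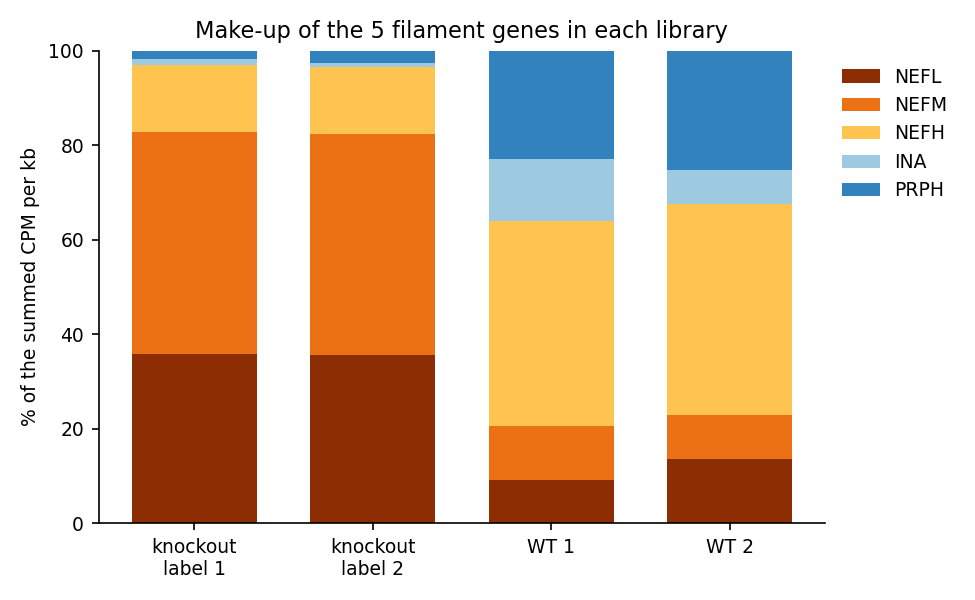
Stacked bars show the share of each of the 5 filament genes in their summed CPM per kb, for each library. NEFL and NEFM make up 82.8% and 82.4% in the knockout-labelled libraries and 20.7% and 22.9% in WT, where NEFH and PRPH take the larger part.

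Among the microtubule genes, DCX was abundant under either label. DCX, which encodes a protein that stabilises the microtubules of migrating neurons (chromosome X, 110537007 to 110655460, minus strand, hg19), was at 509 and 546 CPM in the knockout-labelled libraries, against 491 and 499 CPM in WT. The groups did not overlap, but the difference was small, with a log2 fold change of 0.09 (SE 0.05). TUBB3 (chromosome 16, 89988417 to 90002505, plus strand, hg19) was at 6.91 and 9.78 CPM in the knockout-labelled libraries, against 8.02 and 5.21 CPM in WT. The groups overlapped, and the log2 fold change was 0.34 (SE 0.23). Tubulin genes have near-identical copies, and how the counting split reads among them is not given, so the TUBB3 level is uncertain.

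STMN2, a regulator of microtubule growth in axons (chromosome 8, 80523049 to 80578410, plus strand, hg19), was almost undetected. It had 1.5 counts in each knockout-labelled library, against 4.5 and 7.5 counts in WT, or 0.0768 and 0.0687 CPM against 0.252 and 0.425 CPM. The sums were 3 and 12 counts, a ratio of knockout label over WT of 0.215 (95% exact Clopper-Pearson counting interval 0.0389 to 0.796). The groups did not overlap, in the direction opposite to that of NEFL and NEFM.

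The ELAVL genes were low, and ELAVL4 was near the limit of detection. ELAVL3 (chromosome 19, 11562143 to 11591803, minus strand, hg19) was at 0.845 and 1.49 CPM in the knockout-labelled libraries, against 0.335 and 0.340 CPM in WT. The groups did not overlap, and the log2 fold change was 1.75 (SE 0.47), from 16.5 and 32.5 counts under the knockout label and 6 counts in each WT library. It was 2.10 without knockout replicate 1 and 1.26 without knockout replicate 2. ELAVL4 (chromosome 1, 50574592 to 50669457, plus strand, hg19) had 1 and 5 counts in the knockout-labelled libraries, against 3 and 0 counts in WT. The groups overlapped, and the ratio of the sums, 1.72, had a counting interval of 0.367 to 10.6, so no difference was detectable at this depth.

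In the fit over all genes, 4 of the 8 lay past the adjusted threshold of 0.05 on the higher side (NEFL, NEFM, NEFH and ELAVL3), 0 on the lower side, and INA, PRPH, DCX and TUBB3 not past it. This count is no test of these genes, because the comparison served to choose them. Of all genes tested, 21.9% were called higher, 22.3% were called lower and 44.2% were called in either direction. Nothing is read from the count of 4. The libraries did not overlap between the genotypes for 5 of the 8 in the higher direction and 1 in the lower, against 36.6% of all genes tested in each direction and 73.1% in either. The median log2 fold change of the 8 was 0.74, against 0.00 over all genes tested, and it is no test either, because of that choice. ELAVL3, with 6 counts in each WT library, entered the fit only through the knockout-labelled libraries, where it was higher. STMN2, with 3 counts under the knockout label against 12 in WT, did not enter it.

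Levels of different genes can be compared once divided by transcript length. DCX led the order by far, at 56.1 ± 2.74 CPM per kb under the knockout label and 52.6 ± 0.616 CPM per kb in WT (SD, n = 2 each). Among 13532 genes tested with an annotated coding transcript, 7.32% had a higher level per kb than DCX under the knockout label and 8.23% in WT. NEFM and NEFL came next under the knockout label, at 8.79 ± 0.871 and 6.72 ± 0.667 CPM per kb, where 47.8% and 54.7% of genes were above them. In WT these genes stood at 0.283 ± 0.0319 and 0.311 ± 0.101 CPM per kb, with 95.02% and 94.4% of genes above. TUBB3 followed at 4.22 ± 1.03 CPM per kb under the knockout label and 3.35 ± 1.003 CPM per kb in WT, and NEFH at 2.65 ± 0.271 and 1.20 ± 0.0802. The remaining 5 genes were all below 1 CPM per kb in every library. The libraries of neighbours in the order overlapped for PRPH with ELAVL3, ELAVL3 with INA, and ELAVL4 with STMN2 under the knockout label. In WT they overlapped for NEFL with NEFM and NEFM with INA.

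**Figure D3:**
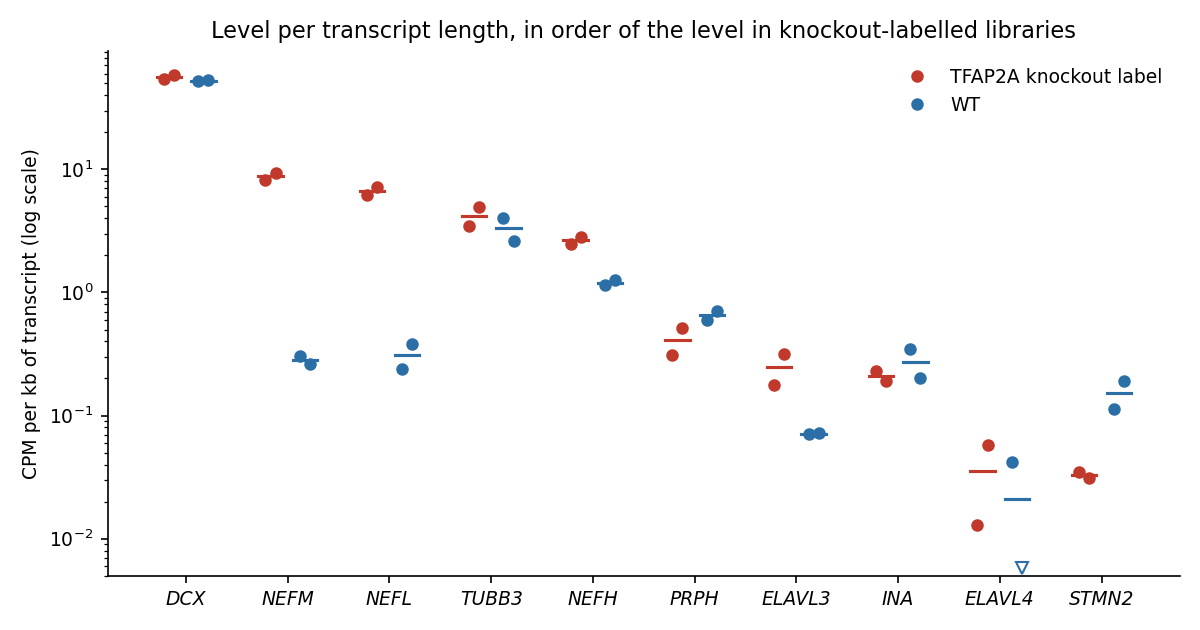
CPM per kb of the longest annotated protein-coding transcript, on a log axis, with genes ordered by their mean in the knockout-labelled libraries (red, left of the WT libraries in blue); points are libraries, bars are means and the open triangle is a library with 0 counts. NEFM and NEFL follow DCX in the knockout-labelled libraries but come after TUBB3, NEFH and PRPH in WT, and DCX is highest under either label.

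NEFM and NEFL are neighbours, 31863 bp apart on chromosome 8 and on opposite strands, and no gene tested lies between them. The surrounding genes did not show a rise of that size. Of the 20 tested genes nearest NEFM, 10 on each side over 4.18 Mb, 6 were higher under the knockout label (NEFL among them) and 3 lower, with a median log2 fold change of 0.13. The next largest differences were at STC1, a secreted glycoprotein hormone gene, with a log2 fold change of 2.09, and at DOCK5, with 1.34. The 20 genes nearest NEFH had a median log2 fold change of 0.01, with 5 higher and 7 lower, and those nearest ELAVL3 had a median of -0.11, with 0 higher and 4 lower. Around DCX, over 9.84 Mb, the median was -0.18, with 4 higher and 8 lower. The medians around INA, PRPH, STMN2, TUBB3 and ELAVL4 lay between -0.15 and 0.02. Single genes could still differ widely. Around ELAVL4, with 4 higher and 4 lower, AGBL4 had a log2 fold change of 3.50, TTC39A of 2.98 and FOXE3 of -2.52.

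**Figure D4:**
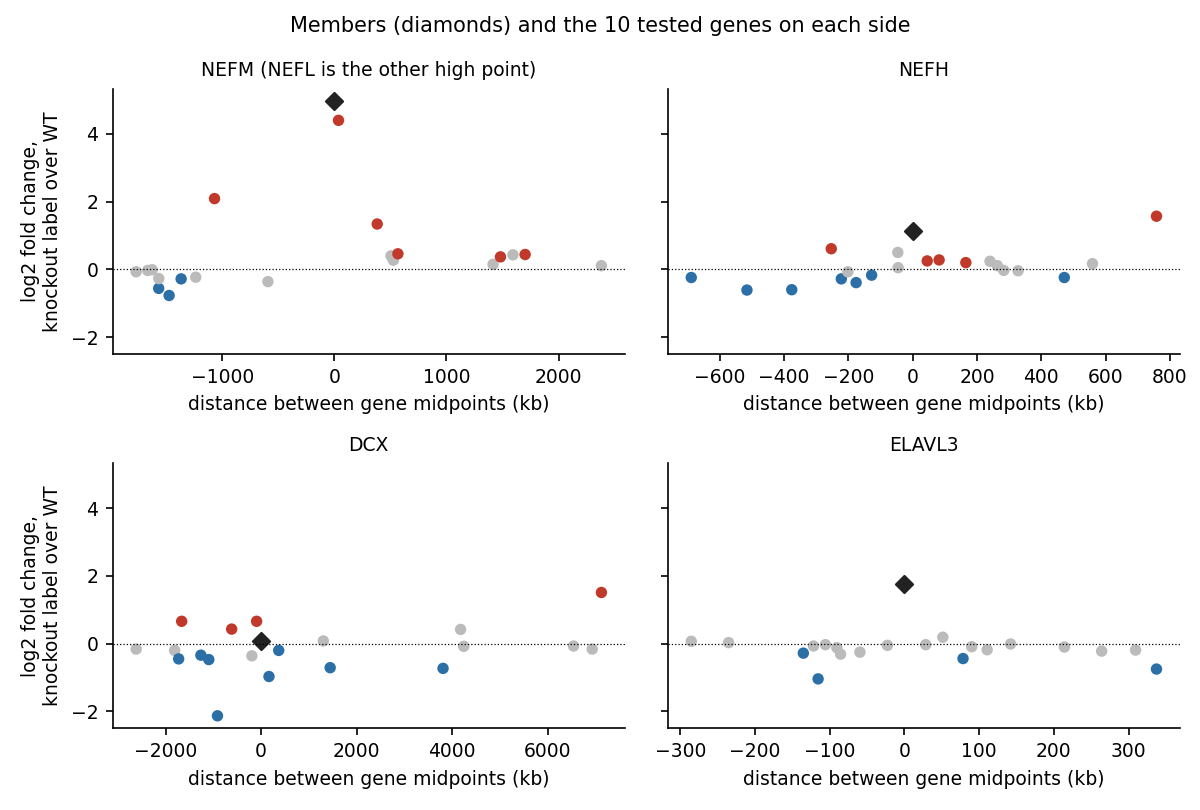
Log2 fold change, knockout label over WT, of the 10 tested genes on each side of NEFM, NEFH, DCX and ELAVL3, against the distance between gene midpoints in kb; diamonds are the named genes, red points passed the test as higher, blue as lower, and grey did not pass. NEFM and NEFL stand at 4.97 and 4.40, above all other genes of their panel.

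Genes with the most similar profile were sought among 12291 genes with at least 5 CPM in a genotype, as the smallest Euclidean distance between log2 CPM values centred over the 4 libraries. For NEFM these were CSRP1, a cysteine-rich LIM-domain protein gene (distance 0.215), at 94.8 and 107 CPM under the knockout label and 3.77 and 4.19 CPM in WT, and TSPYL5 (0.232), at 33.2 and 35.6 CPM against 0.95 and 0.793 CPM in WT. For NEFL they were TUSC1 (0.372), at 11.6 and 10.9 CPM under the knockout label and 0.307 and 0.510 CPM in WT, and CTSF (0.423), a lysosomal protease gene. NEFH was nearest to SULF1 (0.068), which encodes a heparan sulfate endosulfatase, and PDE6B (0.071). DCX was nearest to SLC41A1 (0.005) and MAML1 (0.011), and TUBB3 to SNHG15 (0.215) and TRPM5 (0.224). With 4 libraries in 2 genotypes such likeness is a description.

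Companion genes of the same pathways were read from lists made by function, 162 genes in all, of which 125 could be tested. The lists were chosen with earlier results of these data known, so their counts and p-values are no independent support. Some genes had enough counts for a test in 1 genotype only and entered it because they were high there. Of those named below, RBFOX1, MYT1, SCG2, SOX1 and SOX21 had enough in both libraries only under the knockout label. TLX3 and TH had enough only in WT. Their calls are limited by this. In the knockout-labelled libraries 50 rose, 37 fell and 38 did not pass, with a median log2 fold change of 0.08, against 0.00 over all genes tested. The shares called, here and in each list below, are to be read against those of all genes tested. These were 21.9% called higher, 22.3% called lower and 44.2% in either direction.

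Other microtubule proteins of neurons moved both ways. Of 28 tested, 9 rose, 11 fell and 8 did not pass, with a median log2 fold change of -0.14. MAP2, the dendritic microtubule-associated protein gene, rose to 13.0 ± 2.27 CPM under the knockout label, against 5.44 ± 0.165 CPM in WT (adjusted p = 1.81e-05), and NAV3 rose to 5.17 ± 0.723 against 2.01 ± 0.358 CPM (adjusted p = 0.00016). DCLK2, a kinase related to doublecortin, fell to 11.2 ± 0.536 CPM against 35.7 ± 2.52 CPM in WT (adjusted p = 6.69e-09), and the kinesin gene KIF5C fell to 2.79 ± 0.0654 against 7.91 ± 0.356 CPM (adjusted p = 8.74e-06).

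Intermediate filament and lamin genes outside the neuronal set, listed together with the cytoskeletal linker genes DST and PLEC, were lower more often than higher. Of 13 tested, 3 rose, 6 fell and 4 did not pass (DST and PLEC among the 4), with a median log2 fold change of -0.25. The 3 that rose were VIM, at 1034 CPM under the knockout label against 775 CPM in WT (adjusted p = 1.1e-05), LMNB1, at 338 against 249 CPM (1.4e-05), and LMNB2, at 594 against 541 CPM (0.035). NES, the filament gene of neural progenitors, fell to 135 ± 8.72 CPM under the knockout label, against 258 ± 8.72 CPM in WT (adjusted p = 7.66e-09). KRT19, a keratin gene of simple epithelia, fell to 339.8 ± 1.39 against 603 ± 25.8 CPM (adjusted p = 9.47e-09), the muscle desmin gene DES to 3.28 ± 0.70 against 8.84 ± 0.00743 CPM (adjusted p = 1.80e-05), and the lens filament gene BFSP1 to 10.2 ± 0.924 against 19.2 ± 1.07 CPM (adjusted p = 2.11e-05).

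Neuronal RNA-binding and splicing genes were also split, with 7 of 18 higher, 5 lower and 6 that did not pass, and a median log2 fold change of 0.04. ELAVL2, the close relative of ELAVL3 and ELAVL4, was at 3.74 and 5.18 CPM under the knockout label and 1.84 and 1.93 CPM in WT and rose (log2 fold change 1.24, adjusted p = 0.000636). CELF2 rose to 45.8 ± 0.591 CPM against 17.8 ± 1.30 CPM in WT (adjusted p = 8.46e-09) and the splicing factor gene RBFOX1 to 1.04 ± 0.304 against 0.225 ± 0.0376 CPM (adjusted p = 0.00328, and 0.0556 without knockout replicate 1). KHDRBS3 fell to 11.4 ± 0.963 against 24.1 ± 2.49 CPM (adjusted p = 2.98e-06).

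Proneural and neuron-determining transcription factors were mostly below the limit for a test. Of 33 genes 12 could be tested, and of these 8 rose, 2 fell and 2 did not pass, with a median log2 fold change of 0.46. The other 21 were at 0.641 CPM or less in every library, among them NEUROD1, with 0 and 2 counts under the knockout label and 0 in both WT libraries, and NEUROG2, with 0 counts under the knockout label and 1 in each WT library. Those that rose included MYT1, a zinc finger factor of neuronal differentiation, at 3.30 and 3.21 CPM under the knockout label against 0.727 and 0.113 CPM in WT (adjusted p = 0.000196), and the LIM-homeodomain gene ISL1, at 14.2 and 8.36 against 3.32 and 3.48 CPM (adjusted p = 0.000801). TLX3, a factor of sensory neurons, fell to 0.156 ± 0.0391 CPM against 6.13 ± 0.178 CPM in WT (adjusted p = 1.04e-08).

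Repressors of neuronal genes moved both ways. Of 19 tested, 9 rose, 5 fell and 5 did not pass, with a median log2 fold change of 0.22. REST itself was at 124 and 119 CPM under the knockout label and 116 and 122 CPM in WT and did not pass (log2 fold change 0.03, adjusted p = 0.716); it was named after its values were seen. The corepressor gene RCOR3 rose to 75.4 ± 0.569 CPM against 36.98 ± 0.571 CPM in WT (adjusted p = 1.44e-08), and the inhibitor of DNA binding genes ID4 and ID3 rose to 183 ± 0.399 against 74.9 ± 3.04 CPM (adjusted p = 2.48e-10) and to 367 ± 16.1 against 222 ± 3.70 CPM (adjusted p = 4.29e-08). The Notch target HEY1 fell to 38.6 ± 2.62 against 55.99 ± 4.81 CPM (adjusted p = 7.43e-05).

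Synaptic vesicle and transmitter genes did not share a direction. Of 23 tested, 6 rose, 6 fell and 11 did not pass, with a median log2 fold change of 0.17. SCG2, a secretogranin gene of dense-core vesicles, rose to 1.17 ± 0.0278 CPM under the knockout label, against 0.154 ± 0.138 CPM in WT (adjusted p = 0.000559). CPLX1, a regulator of vesicle fusion, fell to 0.776 ± 0.230 against 3.02 ± 0.627 CPM (adjusted p = 0.000116), and SCG3 fell to 5.22 ± 1.01 against 11.97 ± 1.67 CPM (adjusted p = 5.21e-05). TH, the rate-limiting enzyme of catecholamine synthesis, had 0 counts in both knockout-labelled libraries, against 13.5 and 25.5 counts in WT, at least 15.1-fold lower when 3 counts are taken for the knockout-labelled pair (adjusted p = 0.000101).

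Neural progenitor genes were more often higher. Of 18 genes 14 could be tested, and of these 9 rose, 3 fell and 2 did not pass, with a median log2 fold change of 0.92. SOX1 and SOX21, with 1 and 9 counts in each WT library, entered the test only through the knockout-labelled libraries, where they were higher. Over all genes tested, 21.9% were called higher and 22.3% lower. SOX3 rose to 6.78 ± 1.01 CPM under the knockout label, against 1.75 ± 0.0172 CPM in WT (adjusted p = 3.84e-06), and the Notch ligand gene DLL1 fell to 3.86 ± 0.661 against 16.3 ± 0.140 CPM (adjusted p = 5.79e-08). SOX2 was at 51.7 and 31.4 CPM under the knockout label against 11.7 and 10.9 CPM in WT (adjusted p = 0.0399), but it did not pass with limma-voom, with no low-count filter, or when WT replicate 1 (adjusted p = 0.114) or WT replicate 2 (0.248) was left out. SOX21 was at 3.22 and 1.10 against 0.503 and 0.510 CPM (adjusted p = 0.0231), but did not pass with limma-voom or without knockout replicate 1 (0.122), WT replicate 1 (0.1) or WT replicate 2 (0.117).

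**Figure D5:**
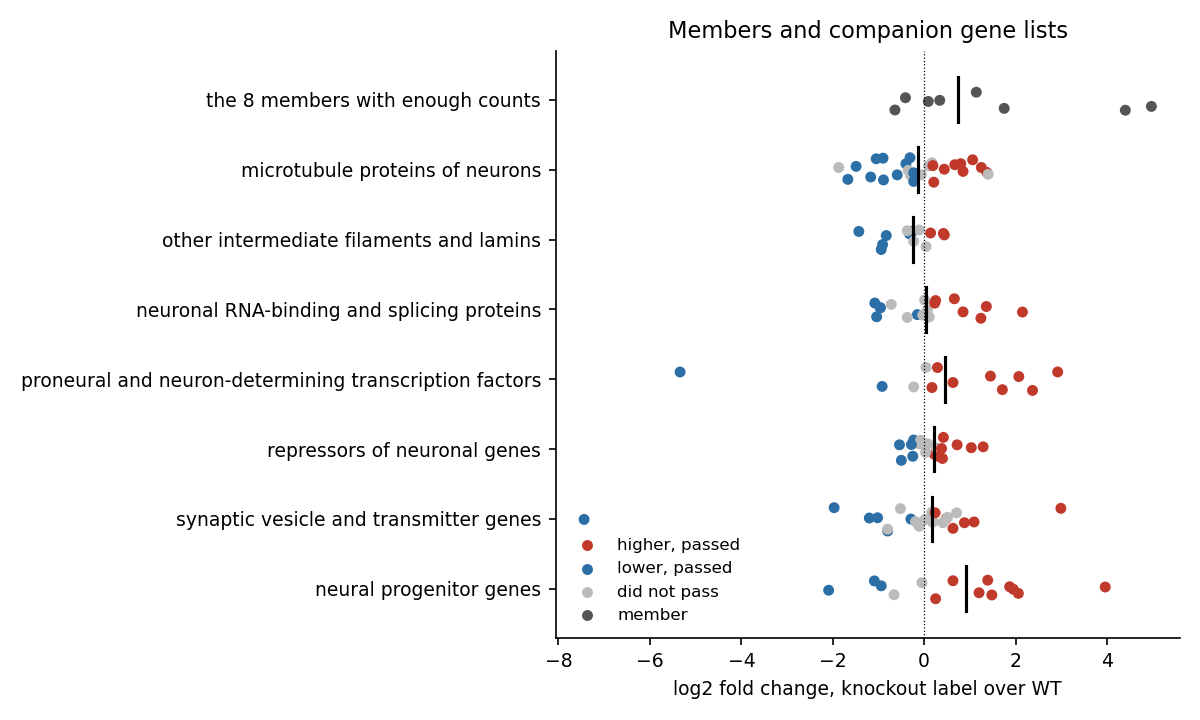
Log2 fold change, knockout label over WT, of the 8 neuronal cytoskeleton and early neuron genes with enough counts (dark grey, shown as a description) and of the tested genes of 7 companion lists; red points passed as higher, blue as lower, light grey did not pass, and vertical bars are medians. NEFM and NEFL lie beyond every companion gene on the higher side; the far left point is TH, whose fitted value depends on the prior count since it had 0 counts under the knockout label.

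Markers of neurons and of other cell types did not share a direction. Of all genes tested, 21.9% were called higher and 22.3% were called lower. The summed level of MAP2, RBFOX3, SYT1 and SNAP25 was 25.4 and 22.9 CPM under the knockout label, against 11.99 and 10.4 CPM in WT. Of these 4, MAP2, SYT1 and SNAP25 rose and RBFOX3, the nuclear marker of mature neurons, was at 0.631 CPM under either label. All 4 also belong to the companion lists above and are no separate evidence. Those lists went both ways, with 9 higher and 11 lower (microtubule), 7 and 5 (RNA-binding), and 6 and 6 (synaptic). The sum leaves out the 10 genes described here, which were chosen on this comparison and went both ways. NEFL, NEFM, NEFH and ELAVL3 were higher under the knockout label. PRPH had a log2 fold change of -0.64 and did not pass, and STMN2, with 3 counts against 12 in WT, was not tested. The summed level of 7 neural crest markers was 61.6 and 56.2 CPM under the knockout label, against 284 and 306 CPM in WT, with 3 of the 4 tested lower. Most of that sum was TFAP2B, and the other 6 markers summed to 15.9 and 15.8 CPM under the knockout label, against 23.1 and 18.96 CPM in WT, with 2 of the 3 tested lower. Among them SNAI2 did not pass (log2 fold change 0.29), and SOX10 averaged 0.182 CPM under the knockout label and 0.169 CPM in WT. Of 6 markers of Schwann cells and glia, summed at 125 and 123 CPM against 151 and 154 CPM in WT, 4 could be tested and 1 fell, and S100B had 0 counts in both knockout-labelled libraries, against 0 and 0.5 counts in WT. The 7 mesenchyme markers summed to 7909 and 9294 CPM, against 10040 and 10370 CPM in WT, with 5 lower, and the 6 muscle markers to 42.4 and 36.2 against 49.0 and 46.4 CPM, with 2 lower. Of 5 pluripotency markers, summed at 130 and 100.5 against 84.6 and 89.9 CPM, SOX2 was the member called higher, and NANOG averaged 0.0229 CPM under the knockout label and 0.0283 CPM in WT. The part of these cell types in the levels of NEFL, NEFM, NEFH and ELAVL3 was not tested.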

How the data were processed

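The table that the authors deposited gives estimated counts for 25690 gene rows. TopHat, HOMER and DESeq2 are named with hg38, without versions, per the submitters' processing notes. Neither annotation nor strand use is given in the sources used here. Of 23020 genes found in a GRCh38 annotation, 4.32% began within 2000 bp of their GRCh38 position, so the table's coordinates are not those of GRCh38. They are printed as hg19, which is inferred and was not checked against an hg19 annotation. All values were multiples of 0.5 (37.0% not whole), and they were rounded for the count models.

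Low genes were removed with filterByExpr, which left 15643, scaled with TMM factors and tested with edgeR 4.0.16 (quasi-likelihood test on genotype alone) in R 4.3.3, and p-values were adjusted by Benjamini-Hochberg, with 0.05 as the threshold. The code was tested on simulated data. CPM used unrounded counts and the TMM-scaled library sizes. The SE of a log2 fold change is its size over the square root of F. Libraries of a genotype differed by more than sampling noise (chi-square per degree of freedom 4.16 under the knockout label and 4.31 in WT). DESeq2 1.42.0 and limma 3.58.1 (voom) were alternatives. Transcript lengths came from GENCODE and promoter windows from RefSeq.

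The members and the companion lists were chosen with earlier results of these data known. Named genes are the members, TFAP2A, TFAP2B and TFAP2C, the nearest profiles, and from each list up to 4 genes past the threshold with the largest change and at least 1 CPM in the higher genotype. KRT8, REST, NEUROD1, NEUROG2, SYT1, SNAP25, RBFOX3, SNAI2, SOX1, SOX10, S100B, NANOG, LOC101927267, STC1, DOCK5, AGBL4, TTC39A, FOXE3, VIM, LMNB1, LMNB2, DST and PLEC were named after their values were seen. A gene that this rule picks is not reported here.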

Additional observations from a re-analysis of the deposited data

How the results depend on the processing

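Over 12 alternatives (11 for INA, PRPH and ELAVL3, which a filter of at least 5 CPM removes) every log2 fold change of the 8 members in the fit kept its sign. NEFL lay between 4.10 and 4.76, NEFM between 4.84 and 5.10, NEFH between 1.03 and 1.24, ELAVL3 between 1.26 and 2.10, PRPH between -1.04 and -0.35, INA between -0.72 and -0.01, DCX between 0.04 and 0.14, and TUBB3 between 0.06 and 0.68. Their median of 0.74 was 1.13 with a filter of at least 5 CPM on average, which leaves fewer members, and the same filter left 32 companion genes higher against 50. Leaving out each library in turn gave medians between 0.55 and 0.90, 41 to 47 companion genes higher and 30 to 36 lower. DESeq2 called 2386 genes higher and 2543 lower, against 3427 and 3492 with edgeR. The replicate numbers do not show a pairing (correlation of same-numbered deviations -0.0352). With the replicate number as a block 50 companion genes were higher and 34 lower, 3050 and 3154 over all genes. Among named companion genes, calls were lost for SOX2, SOX21 and RBFOX1 under the alternatives given with them. Depth limits STMN2, ELAVL4, ELAVL3 and the WT levels of NEFL and NEFM, which rest on few counts.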
